A study of Mus musculus with 9 samples.

Results

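The replication-dependent histone genes supply the bulk of the histone protein that packages new DNA. They were taken as the protein-coding rows of the gene table named H1f1 to H1f5, or H2ac, H2bc, H3c or H4c followed by a number. The rule gave 63 genes of the 56748 in the table. They comprise 5 genes for the linker histone H1, 17 for H2A, 17 for H2B, 12 for H3 and 12 for H4. By the table's chromosome column, 53 of them lie on chromosome 13 and 10 on chromosome 3.

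The samples were 9 RNA sequencing libraries of RAW264.7, a transformed mouse macrophage cell line, in 3 groups of 3. The PBS group was the vehicle control. The P-Mn@mHSA group received nanoparticles that contain nanoenzymes, which are materials with enzyme-like activity. The P-Mn/TI@mHSA group received nanoparticles that contain nanoenzymes and also an inhibitor of TRAF6, an adaptor with ubiquitin ligase activity that acts below Toll-like receptors. All 3 groups, the PBS cells included, were held under what the labels call the model condition, which they do not explain, and the sources used here give no dose or time. The labels do not say that the replicates were separate cultures, so the p-values cover the spread between libraries alone, and that spread may be technical.

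Most mRNAs end in a poly(A) tail, but replication-dependent histone mRNAs are cut just behind a short stem-loop and normally carry no tail. The stem-loop is bound by SLBP, and the mRNAs build up in S phase and are degraded when DNA synthesis stops. Some of these genes, among them H1f2, H2bc4 and H2bc21, are also known to make polyadenylated transcripts in differentiated cells. RNA selected on its poly(A) tail holds little of the tailless form. The series' design speaks of mRNA profiles and the labels of total RNA, and the sources used here do not say how the RNA was selected.

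These genes were a very small share of the reads. Total counts ran from 13994570 to 15543439 per library, and the 63 genes together had 643 to 901 counts in a library, or 0.00448% to 0.00640% of the total. The H1f2 gene alone took 62.0% to 63.8% of these counts in the PBS libraries. Its share was 37.1% to 45.1% in the P-Mn@mHSA libraries and 48.2% to 49.4% in the P-Mn/TI@mHSA libraries. Of the 63 genes, 55 had at least 1 count in some library and 15 passed the filter on low counts. Those 15 were 4 H1 genes, 3 H2B genes, 5 H3 genes and 3 H4 genes, and no H2A gene passed. A count of 3 corresponds to 0.196 to 0.213 CPM (counts scaled to library size), a limit that covers counting error only. The filter needs enough counts in only 3 of the 9 libraries, of whichever group. A gene nearly silent in PBS could therefore pass only by being higher with a particle, so the 15 are not a sample of all 63 genes.

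The stem-loops are shown for the 7 tested genes on which the results turn and in whose transcript one was found, since this element sets how the mRNA ends. A stem-loop was searched within 150 bases after the stop codon of each gene's longest coding transcript in GENCODE M21. It had to be a perfect stem of 6 base pairs that starts with GG and closes a loop of 4 bases. Other transcripts of a gene were not searched. A stem-loop was found in 41 of the 63 transcripts. A further 13 genes have no annotated base after the stop codon and could not be searched, H1f5, H3c10 and H3c11 among them. The stem and loop are in capitals, with 5 flanking bases on each side, written 5′ to 3′ on the gene's strand. Coordinates are GRCm38.
H1f2, chr13:23739507-23739532, plus strand: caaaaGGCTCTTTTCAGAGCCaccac
H1f3, chr13:23555782-23555807, plus strand: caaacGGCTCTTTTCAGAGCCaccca
H3c3, chr13:23745042-23745067, minus strand: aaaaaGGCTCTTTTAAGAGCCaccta
H3c6, chr13:23561898-23561923, minus strand: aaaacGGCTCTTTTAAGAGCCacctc
H4c4, chr13:23581945-23581970, plus strand: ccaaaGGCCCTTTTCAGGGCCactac
H4c9, chr13:22040961-22040986, minus strand: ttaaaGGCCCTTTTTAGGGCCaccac
H4c18, chr13:21831793-21831818, minus strand: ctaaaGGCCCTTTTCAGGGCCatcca
Both H1 genes shown have the same stem and loop, as do both H3 genes. H4c4 and H4c18 share theirs, and the one of H4c9 differs. Over the genes with a single exon, 8 different versions were found, and the commonest stood in 22 genes.

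Promoters are shown for H1f2, which fell with the lowest p, and for H3c3 and H4c4, which rose with the lowest p of the H3 and H4 genes. Each line gives the 150 bases before the transcription start in RefSeq, on the gene's strand and with GRCm38.p6 coordinates. Capitals mark the letters CCAAT or TATAAA, the cores of the CCAAT box and the TATA box, on either strand.
H1f2, chr13:23738657-23738806, plus strand: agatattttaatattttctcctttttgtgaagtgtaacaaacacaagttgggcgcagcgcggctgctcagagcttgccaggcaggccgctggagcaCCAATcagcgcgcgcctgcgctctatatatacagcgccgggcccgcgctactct
H3c3, chr13:23745522-23745671, minus strand: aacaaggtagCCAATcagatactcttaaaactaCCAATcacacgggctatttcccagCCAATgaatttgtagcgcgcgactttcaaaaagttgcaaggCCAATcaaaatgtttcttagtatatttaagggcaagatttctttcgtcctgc
H4c4, chr13:23581418-23581567, plus strand: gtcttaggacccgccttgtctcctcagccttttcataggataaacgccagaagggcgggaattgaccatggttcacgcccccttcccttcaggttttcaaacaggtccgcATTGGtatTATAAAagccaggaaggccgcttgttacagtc
RefSeq promoters of 300 bases, 250 before the start and 50 after it, were matched by symbol for 57 of the 63 genes. CCAAT was present in 49 of the 57 (86.0%), against 37.4% of all 32851 promoters in that table. It stood in every matched H1, H2A, H2B and H3 promoter and in 3 of 11 H4 promoters. TATAAA was present in 34 of the 57 (59.6%), against 13.6% of all promoters. The octamer ATTTGCAT, the site that POU2F1 (OCT1) binds in H2B promoters, was present in 6 of 14 H2B and 6 of 17 H2A promoters, against 1.74% of all promoters. These hits are not all separate sites, since the windows of neighbouring H2A and H2B genes can overlap. H2ac1 and H2bc1, H2ac8 and H2bc8, and H2ac12 and H2bc12 each share 1 octamer, and CCAAT and TATAAA sites can be shared likewise. H2bc6 has 2 starts, of which the first was counted, and only the second has the octamer. The octamer overlaps neither of the other motifs in its letters. A match is a description of the letters in this window and not evidence of binding.

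Copies of a histone share much of their sequence, and the sources used here do not say how the authors counted reads with several matches. In its longest coding transcript, the median gene had 57.0% of its 50-base stretches also in another gene's transcript, read on either strand. Transcripts of genes that overlap in position were included, so this share is not only similarity between histone copies. Among the genes named below the share was 0% for H2bc21, 2.25% for H1f3, 8.54% for H1f2, 10.2% for H4c4, 28.9% for H4c9, 30.6% for H2bc4 and 47.0% for H3c3. It was 73.4% for H3c6, 85.6% for H4c18, 87.6% for H3c11 and 93.9% for H3c10, so that reads of these 4 could be split among copies and their single values are uncertain. For this reason the sums over each family are given beside the genes. All 8 genes without a count in any library were H2A, H2B or H3 genes, and for 5 of them, all on chromosome 3, every 50-base stretch is also in another gene. All of the 8 but H2bc1 also overlap another gene of the table in position, so their lack of counts need not mean lack of expression.

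With P-Mn@mHSA the H1 and H2B genes with the most counts fell, while H3 and H4 genes rose from low levels. Of the 15 tested genes, 7 were higher than in PBS, where the background over all 12454 genes tested was 24.3% higher, and 4 were lower, against a background of 24.1% lower (edgeR quasi-likelihood test, Benjamini-Hochberg adjusted p under 0.05). Since low genes could pass the filter through the particle groups, nothing is read from the share of higher genes against that background. The genes that rose were H3c3, H3c6, H3c10, H3c11, H4c4, H4c9 and H4c18. All but H4c9 had at most 8 counts in any PBS library, under the filter's minimum of 10. They passed the filter only through the particle libraries, so their calls and folds depend on that selection. Those that fell were H1f2, H1f3, H2bc4 and H2bc21, and the 4 not called were H1f4, H1f5, H2bc6 and H3c8. In bulk RNA, a change in the share of cells in S phase and a change in histone mRNA per cell cannot be told apart, in either direction.

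**Figure D1:**
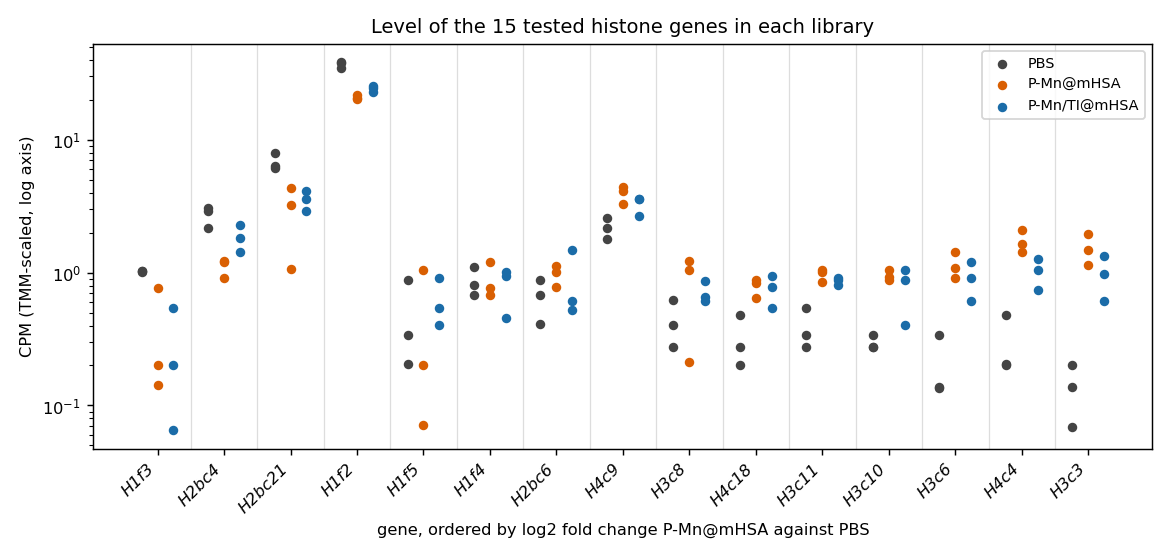
Level of each of the 15 tested genes in each library, as CPM after TMM scaling on a log axis, with 3 points per group and genes ordered by their log2 fold change of P-Mn@mHSA against PBS. H1f2 stands above all others at 20.4 to 38.3 CPM, and the 3 PBS libraries lie below the 3 P-Mn@mHSA libraries for the H3 and H4 genes other than H3c8.

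H1f2 encodes a linker histone, which binds the DNA between nucleosomes, and was the most abundant member per length, at a mean of 17.4 FPKM (fragments per kilobase of gene length, scaled to library depth) over all libraries. It had 557, 505 and 559 counts in the PBS libraries, 324, 292 and 290 with P-Mn@mHSA and 362, 351 and 379 with P-Mn/TI@mHSA. The 3 groups did not overlap, with PBS highest and P-Mn@mHSA lowest. The level was 36.8 ± 2.05 CPM (SD, n = 3 here and below) in PBS, 20.97 ± 0.841 with P-Mn@mHSA and 24.3 ± 1.26 with P-Mn/TI@mHSA. H1f2 fell 1.76-fold with P-Mn@mHSA (log2 fold change -0.81 ± 0.0923 SE, edgeR adjusted p 2.98e-07) and 1.52-fold with P-Mn/TI@mHSA (-0.60 ± 0.0909, edgeR adjusted p 9.76e-06).

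H1f3, another linker histone, had 15 counts in each PBS library, then 3, 11 and 2 with P-Mn@mHSA and 8, 1 and 3 with P-Mn/TI@mHSA. Every particle library was below every PBS library. Its log2 fold change was -1.44 ± 0.588 with P-Mn@mHSA (edgeR adjusted p 0.0474) and -1.90 ± 0.619 with P-Mn/TI@mHSA (edgeR adjusted p 0.0128). The size depends on single libraries: it was -2.50 when P-Mn@mHSA replicate 2 was left out and -2.87 when P-Mn/TI@mHSA replicate 1 was. The call with P-Mn@mHSA was lost in 11 of 17 alternatives, with adjusted p from 0.00687 to 0.179 over all of them. H1f4 and H1f5, also linker histones, had 7 to 17 and 1 to 15 counts per library, with overlapping groups and no call in any comparison. H1f1, a linker histone mostly of the testis, was not tested and had at most 7 counts in a library.

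H2A and H2B pair with each other in the nucleosome. H2bc21 had 116, 90 and 94 counts in PBS, 48, 62 and 15 with P-Mn@mHSA and 53, 45 and 61 with P-Mn/TI@mHSA. Both particle groups lay below PBS, and P-Mn@mHSA replicate 3 was the lowest library. It fell 2.36-fold with P-Mn@mHSA (log2 fold change -1.24 ± 0.290, edgeR adjusted p 0.00134) and 1.93-fold with P-Mn/TI@mHSA (-0.95 ± 0.281, edgeR adjusted p 0.00712). Its level was 6.82 ± 1.002 CPM in PBS, 2.88 ± 1.66 with P-Mn@mHSA and 3.54 ± 0.577 with P-Mn/TI@mHSA.

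H2bc4 had 45, 32 and 43 counts in PBS, 18, 13 and 17 with P-Mn@mHSA and 27, 22 and 34 with P-Mn/TI@mHSA. The P-Mn@mHSA libraries lay below all others, while P-Mn/TI@mHSA overlapped with PBS. It fell 2.44-fold with P-Mn@mHSA (-1.29 ± 0.317, edgeR adjusted p 0.00197), and its log2 fold change with P-Mn/TI@mHSA was -0.56 ± 0.293 (edgeR adjusted p 0.111). H2bc6, the third H2B gene tested, had 6 to 22 counts per library and was not called. It overlaps H1f4 on the same strand, so reads of both may be mixed. Among H2A genes the most abundant per length, H2ac23, had 4, 4 and 6 counts in PBS, 1, 9 and 7 with P-Mn@mHSA and 4, 9 and 5 with P-Mn/TI@mHSA. These groups overlapped, and no H2A gene had more than 15 counts in a library. Every H2A gene also overlaps another gene of the table on the opposite strand, where 23 of all 63 genes overlap any other gene. The use of strand in counting is unknown, so H2A reads may have been lost there, which was not tested.

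The H3 genes stood nearly at the floor in PBS. H3c3 had 2, 1 and 3 counts in PBS, 17, 28 and 21 with P-Mn@mHSA and 9, 15 and 20 with P-Mn/TI@mHSA. All particle libraries were above all PBS libraries. Its level was 0.136 ± 0.0668 CPM in PBS, 1.53 ± 0.403 with P-Mn@mHSA and 0.976 ± 0.365 with P-Mn/TI@mHSA. H3c3 rose 10.6-fold with P-Mn@mHSA (log2 fold change 3.41 ± 0.567, edgeR adjusted p 4.01e-05) and 6.80-fold with P-Mn/TI@mHSA (2.77 ± 0.604, edgeR adjusted p 0.000571). Only 6 PBS counts stand behind these folds, so their size is known less well than their direction.

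H3c6 had 2, 5 and 2 counts in PBS, 16, 13 and 20 with P-Mn@mHSA and 9, 14 and 18 with P-Mn/TI@mHSA. H3c10 had 4, 4 and 5 counts, then 13, 15 and 13, and then 13, 16 and 6. H3c11, the most abundant H3 gene per length at 1.79 FPKM, had 4, 5 and 8 counts, then 15, 15 and 12, and then 13, 14 and 12. In each of these 3 genes every particle library exceeded every PBS library. Their log2 fold changes with P-Mn@mHSA were 2.42 ± 0.548 for H3c6 (edgeR adjusted p 0.000966), 1.66 ± 0.518 for H3c10 (0.0115) and 1.31 ± 0.466 for H3c11 (0.0241). With P-Mn/TI@mHSA they were 2.11 ± 0.564 for H3c6 (edgeR adjusted p 0.00331), 1.37 ± 0.532 for H3c10 (0.0341) and 1.15 ± 0.471 for H3c11 (0.0443). Several alternatives ended the calls of H3c11 in both comparisons (adjusted p up to 0.0965 and 0.151) and that of H3c10 with P-Mn/TI@mHSA (up to 0.149). H3c8 had 9, 4 and 6 counts in PBS, 18, 15 and 3 with P-Mn@mHSA and 9, 10 and 13 with P-Mn/TI@mHSA, and it was not called.

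H3 and H4 together form the core of the nucleosome. H4c9, the most abundant core histone gene per length at 4.28 FPKM, had 26, 32 and 38 counts in PBS, 61, 63 and 46 with P-Mn@mHSA and 53, 55 and 40 with P-Mn/TI@mHSA. Both particle groups lay above PBS. It rose 1.80-fold with P-Mn@mHSA (log2 fold change 0.85 ± 0.250, edgeR adjusted p 0.00775) and was 0.59 ± 0.253 with P-Mn/TI@mHSA, just short of the threshold (edgeR adjusted p 0.0541).

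H4c4 had 7, 3 and 3 counts in PBS, 21, 30 and 23 with P-Mn@mHSA and 11, 16 and 19 with P-Mn/TI@mHSA, so the 3 groups did not overlap. Its level was 0.296 ± 0.160 CPM in PBS, 1.72 ± 0.344 with P-Mn@mHSA and 1.02 ± 0.265 with P-Mn/TI@mHSA. It rose 5.67-fold with P-Mn@mHSA (log2 fold change 2.50 ± 0.469, edgeR adjusted p 0.000153) and 3.39-fold with P-Mn/TI@mHSA (1.76 ± 0.502, edgeR adjusted p 0.00531). H4c18 had 7, 4 and 3 counts in PBS, 13, 12 and 9 with P-Mn@mHSA and 8, 12 and 14 with P-Mn/TI@mHSA. Its log2 fold change was 1.28 ± 0.525 with P-Mn@mHSA (edgeR adjusted p 0.0484) and 1.22 ± 0.525 with P-Mn/TI@mHSA (edgeR adjusted p 0.0540). The former call was lost in 12 of 17 alternatives, with adjusted p from 0.00363 to 0.163.

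With P-Mn/TI@mHSA, 5 of the 15 genes were higher than in PBS, against a background of 27.1% higher over all tested genes, and 3 were lower, against 27.3% lower (edgeR adjusted p under 0.05). Those higher were H3c3, H3c6, H3c10, H3c11 and H4c4, and those lower were H1f2, H1f3 and H2bc21. The 5 higher genes had all passed the filter only through the particle libraries, so their calls and folds depend on that selection here too. For the same reason nothing is read from the share of higher genes against that background. Both particle groups were compared with the same 3 PBS libraries, so the calls of the 2 comparisons are not independent. Without P-Mn/TI@mHSA replicate 2, 5 genes were called, 3 higher and 2 lower.

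Between the particles no tested histone gene was called. The comparison of P-Mn/TI@mHSA with P-Mn@mHSA gave 0 of 15 genes, where the background was 1.48% higher and 2.34% lower (edgeR, lowest adjusted p 0.216). At an unadjusted p under 0.05 there were 2, H1f2 (log2 fold change 0.21 ± 0.0946) and H2bc4 (0.73 ± 0.330), both higher with the inhibitor. DESeq2, which gave an adjusted p for 3 of the 15, and limma on log2(FPKM + 1) called 0 as well. For H4c4 the log2 difference was -0.74 ± 0.380, and for H3c3 it was -0.64 ± 0.400. The standard errors leave room for differences of this size, so these data do not show that both particles act alike on these genes.

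Sums over each family include all members, tested or not, and depend less on which member a shared read was given to: the median share of stretches also in another member was 49.5%. Some members share mainly with genes outside the families, such as H2bc18 with 100% of its stretches in other genes and 0% in members, and reads left out for having several matches are not recovered by a sum. They are descriptions with no test. The H1 sum was 39.3 ± 2.13 CPM in PBS, 22.9 ± 0.679 with P-Mn@mHSA and 26.3 ± 1.55 with P-Mn/TI@mHSA. The 3 groups did not overlap, and H1f2 made up 92.7% of the H1 counts. Without H1f2, the H1 sum was 2.50 ± 0.175, 1.97 ± 0.897 and 2.03 ± 0.404 CPM, and the groups overlapped.

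The H3 sum was 2.32 ± 0.0784 CPM in PBS, 6.72 ± 0.529 with P-Mn@mHSA and 5.48 ± 0.891 with P-Mn/TI@mHSA, or 2.90-fold and 2.36-fold the PBS level. The H4 sum was 4.07 ± 0.423, 9.80 ± 1.14 and 7.53 ± 0.372 CPM, or 2.41-fold and 1.85-fold. In both families the 3 groups were apart, with PBS lowest and P-Mn@mHSA highest. Leaving out H3c3 gave 2.38-fold and 2.06-fold for H3, and leaving out H4c9 gave 3.11-fold and 2.25-fold for H4, so neither difference came from the leading gene alone.

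The H2B sum was 11.9 ± 1.49 CPM in PBS, 7.99 ± 1.72 with P-Mn@mHSA and 8.64 ± 1.67 with P-Mn/TI@mHSA. Without H2bc21 it was 5.09 ± 0.957, 5.11 ± 0.261 and 5.10 ± 1.09 CPM, with ratios to PBS of 1.005 and 1.002. The H2B sum was therefore lower only with that gene included, but the level remainder holds opposite differences. In the same order, H2bc4 was at 2.73, 1.11 and 1.85 CPM, and the 14 H2B genes under the count filter summed to 1.70, 3.03 and 2.38 CPM. The H2A sum was 1.18 ± 0.211, 2.35 ± 1.46 and 1.79 ± 0.671 CPM. Its groups overlapped, since P-Mn@mHSA replicate 1, with 15 H2A counts, lay within the PBS range of 14 to 20 counts. P-Mn@mHSA replicate 2 stood above all other libraries with 56 counts, and without that library the log2 ratio of P-Mn@mHSA to PBS went from 0.99 to 0.41.

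**Figure D2:**
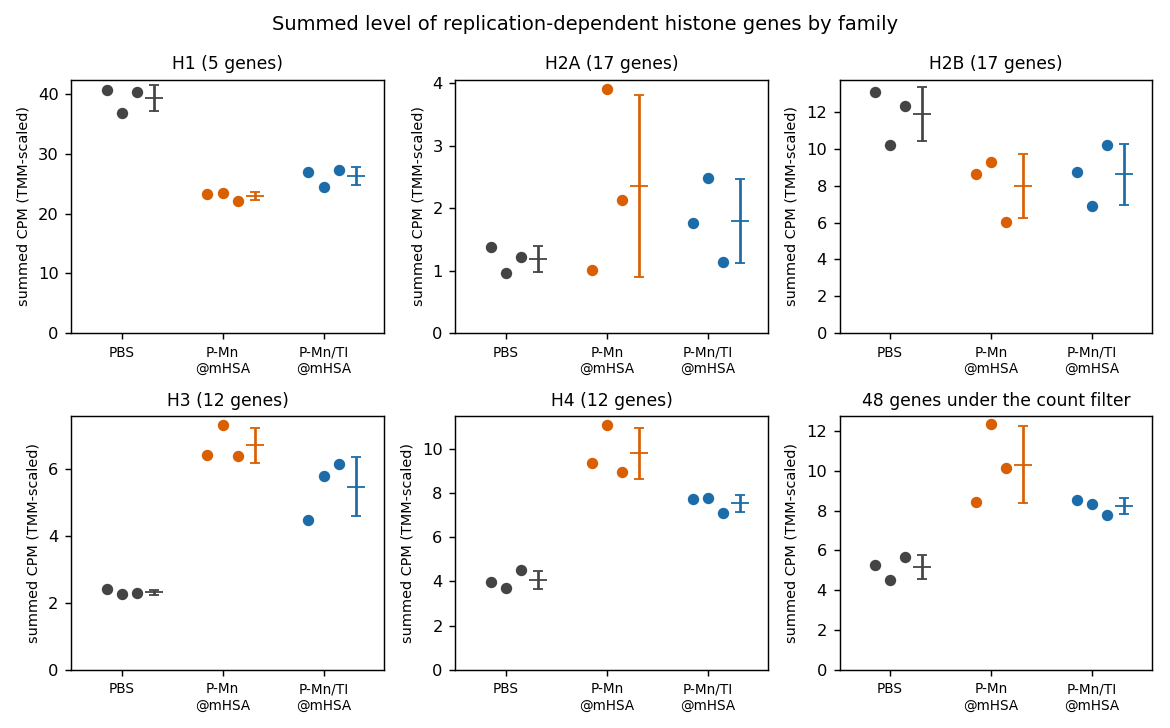
Summed level of each histone family in each library, as CPM after TMM scaling, with points for the 3 replicates and a bar for their mean ± SD in PBS, P-Mn@mHSA and P-Mn/TI@mHSA cells. The H1 sums lie at 36.9 to 40.7 CPM in PBS and at 22.2 to 27.4 CPM with a particle, whereas the H3, H4 and low-count sums are higher with either particle than in PBS.

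The total over all 63 genes was 58.8 ± 4.16 CPM in PBS, 49.8 ± 4.75 with P-Mn@mHSA and 49.7 ± 2.28 with P-Mn/TI@mHSA. This total follows H1f2: without that gene it was 21.98 ± 2.11, 28.8 ± 5.08 and 25.5 ± 1.07 CPM, or 1.31-fold and 1.16-fold the PBS level. Summed as FPKM, which weights genes by length, the total was also higher with the particles, at log2 ratios of 0.27 and 0.14, where the CPM sums gave -0.24 and -0.24. The direction of the total therefore depends on the scale, while those of H1, H3 and H4 do not.

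The 48 genes under the count filter add reads that no single test could use. Their summed level was 5.16 ± 0.593 CPM in PBS, 10.3 ± 1.95 with P-Mn@mHSA and 8.22 ± 0.400 with P-Mn/TI@mHSA. Both particle groups lay above PBS, at 2.001-fold and 1.59-fold its level. By family the ratio of P-Mn@mHSA to PBS among these genes was 1.78 for H2B, 1.504 for H3 and 2.64 for H4, each without overlap, and 1.99 for H2A and 2.03 for H1 with overlap. With P-Mn/TI@mHSA it was 1.94 for H4 without overlap, and 1.40 for H2B, 1.44 for H3, 1.52 for H2A and 2.45 for H1, each with overlap. H4c12, for example, had 5 counts over the 3 PBS libraries, 32 with P-Mn@mHSA and 15 with P-Mn/TI@mHSA. H2bc12 had 6, 25 and 12 counts in the same order. Not all went this way: H2bc9 had 13, 4 and 14 counts, and H2bc23 had 15, 9 and 12. These 4 genes were chosen after their values were seen.

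The annotated stretch past the stop codon was set beside the calls, a description of the tested genes made after the calls were known. The stretch was taken from each gene's longest coding transcript in GENCODE M21, and other transcripts may end elsewhere. It was 742 bases in H2bc4, 880 in H1f2, 2192 in H2bc21 and 4931 in H1f3, the 4 genes lower with P-Mn@mHSA. In the 7 higher genes it ran from 0 to 822 bases, and H4c4 alone of them was over 421. The uncalled genes spanned the range, with 0 bases in H1f5, 95 in H3c8, 1209 in H1f4 and 1906 in H2bc6. The stem-loops printed above lie near the start of these stretches: 840 annotated bases follow it in H1f2 and 4884 in H1f3, against 74 in H3c3, 369 in H3c6 and 330 in H4c9. No stem-loop of this form was found within the search window of the longest coding transcript of H2bc4 and H2bc21. Any other transcripts of these genes were not searched. H4c4, with 770 bases after its stem-loop, is the exception among the genes that rose. Of the 14 members with over 700 such bases, 7 were untested, and they did not all have fewer counts with the particles: H4c14, with 1311 bases, had 13 counts over the PBS libraries, 30 with P-Mn@mHSA and 9 with P-Mn/TI@mHSA, and H3c4, with 799 bases, had 8, 11 and 27.

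Annotations disagree on these lengths. RefSeq gives H1f2 and H1f3 a length of 725 and 776 bases, where the deposited table uses 1560 and 7425 bases. The table's length equals that of the longest coding transcript in GENCODE M21 in 60 of the 63 genes. Whether reads fell before or after the stem-loop cannot be read from gene counts, so the part of either end in these values was not tested.

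**Figure D3:**
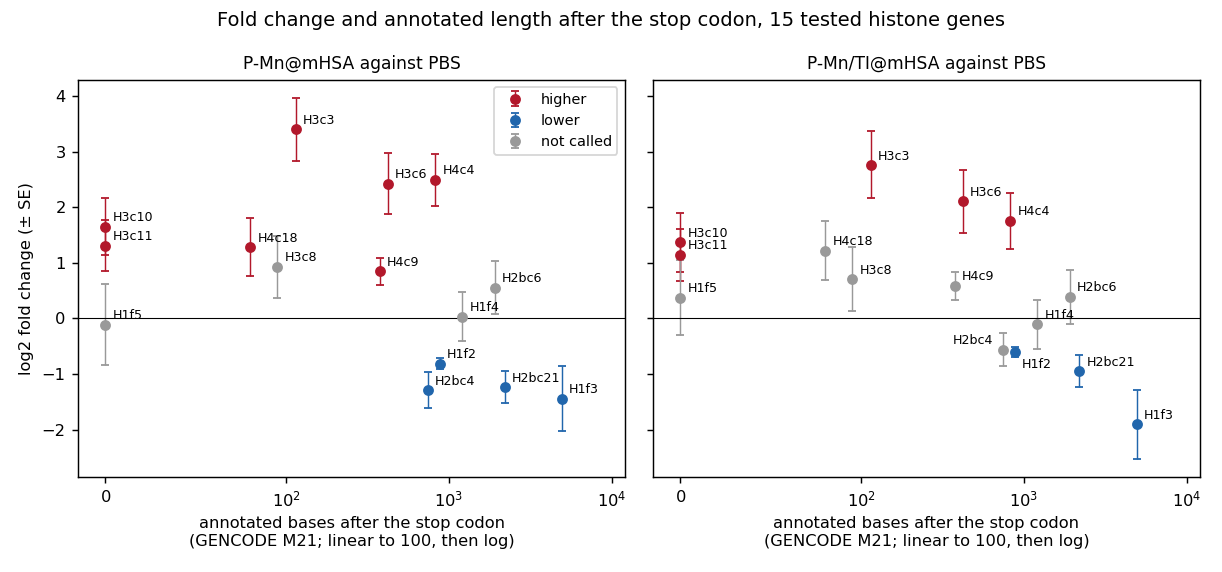
Log2 fold change (± SE) of the 15 tested genes, for each particle against PBS, with colours for edgeR calls. The horizontal axis, linear to 100 and logarithmic beyond, gives the annotated bases after the stop codon in each gene's longest coding transcript. The genes called lower sit at 742 to 4931 bases, and those called higher at 0 to 822.

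Other RNAs listed as lacking a poly(A) tail were also measured. Gene counts do not separate the forms of an RNA, those of Neat1 included. The values below therefore do not measure how much tailless RNA a library holds. Malat1 and Neat1, long nuclear RNAs whose ends are made by RNase P cleavage (Neat1 in its long form), fell with P-Mn@mHSA, at log2 fold changes of -2.51 ± 0.147 (edgeR adjusted p 1.04e-11) and -1.52 ± 0.0814 (2.43e-12). With P-Mn/TI@mHSA they were -2.47 ± 0.146 (edgeR adjusted p 1.32e-11) and -1.72 ± 0.0820 (3.68e-13). Rn7sk, the small nuclear RNA that holds back the elongation factor P-TEFb and the only other tested RNA of this list, had 14, 12 and 11 counts in PBS, 16, 31 and 19 with P-Mn@mHSA and 13, 10 and 11 with P-Mn/TI@mHSA. Its log2 fold change was 0.86 ± 0.391 with P-Mn@mHSA (edgeR adjusted p 0.0763) and -0.15 ± 0.430 with P-Mn/TI@mHSA (edgeR adjusted p 0.787). The P-Mn@mHSA libraries lay above PBS for Rn7sk, which was not called, and below it for Malat1 and Neat1. Small nuclear RNA rows summed to 7.33 ± 2.35 CPM in PBS, 5.50 ± 0.641 with P-Mn@mHSA and 5.35 ± 0.283 with P-Mn/TI@mHSA. Small nucleolar RNA rows summed to 27.4 ± 3.53, 21.8 ± 3.65 and 20.5 ± 3.22 CPM, and cytoplasmic rRNA rows to 2820 ± 575, 1793 ± 138 and 2424 ± 613 CPM. The means of these sums were lower in the particle groups, but the small nuclear RNA sums of both overlapped with PBS, as did the small nucleolar sum with P-Mn@mHSA and the rRNA sum with P-Mn/TI@mHSA. Mitochondrial rRNA rows were higher with P-Mn@mHSA, without overlap, at 668 ± 40.0 CPM in PBS, 942 ± 222 with P-Mn@mHSA and 661 ± 56.4 with P-Mn/TI@mHSA. Small Cajal body RNA rows summed to 1.12 ± 0.282, 0.807 ± 0.273 and 1.09 ± 0.379 CPM. Miscellaneous RNA rows summed to 4.84 ± 0.185, 3.90 ± 1.95 and 2.98 ± 0.136 CPM, and ribozyme rows had at most 2 counts in a library. Their part in the histone values was not tested.

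Factors that make and degrade histone mRNA were counted from a list. Of 25 tested genes of histone mRNA processing and transcription, 5 were higher and 8 lower with P-Mn@mHSA, and 9 were higher and 11 lower with P-Mn/TI@mHSA (edgeR). The shares over all tested genes were 24.3% higher and 24.1% lower with P-Mn@mHSA and 27.1% higher and 27.3% lower with P-Mn/TI@mHSA, and these hold for the lists below too. The median log2 fold changes of the list were -0.08 and -0.17. Slbp, which binds the stem-loop, rose 1.22-fold with P-Mn@mHSA (edgeR adjusted p 0.00602) and 1.19-fold with P-Mn/TI@mHSA (0.0135). Npat, the coactivator of histone transcription, fell from 32.5 CPM in PBS to 20.9 with P-Mn@mHSA (edgeR adjusted p 2.18e-05) and 18.1 with P-Mn/TI@mHSA (4.99e-07). Casp8ap2, whose product FLASH is needed for cleavage of histone pre-mRNA, fell from 11.8 CPM to 4.65 (edgeR adjusted p 1.23e-05) and 4.83 (1.43e-05).

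The list also holds factors of histone mRNA decay and of octamer binding. Tut4, a uridylyl transferase, fell 1.68-fold with P-Mn@mHSA (edgeR adjusted p 3.71e-06) and 1.65-fold with P-Mn/TI@mHSA (4.04e-06). Pou2f2, the lymphoid and myeloid octamer-binding factor, fell 2.05-fold with P-Mn@mHSA (edgeR adjusted p 3.50e-07) and 1.43-fold with P-Mn/TI@mHSA (0.000726). Between the particles it was 1.43-fold higher with the inhibitor (edgeR adjusted p 0.0181), and Upf1, which acts in histone mRNA decay, was 1.21-fold higher (0.0113). The Pou2f2 call between the particles was lost in 6 of 17 alternatives (adjusted p from 5.84e-08 to 0.123), and that of Upf1 in 2, without P-Mn/TI@mHSA replicate 1 or 3 (adjusted p from 0.000956 to 0.0715 over all alternatives).

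Many histone genes outside the replication-dependent clusters are expressed through the whole cell cycle and make polyadenylated mRNA. The list counted here was drawn up as polyadenylated or variant histones, so this need not hold for each of its genes, H2ax and Cenpa included. Of 11 tested, 3 were higher and 3 lower with P-Mn@mHSA, and 3 were higher and 2 lower with P-Mn/TI@mHSA (edgeR), which is near the shares over all tested genes. H3f3b, which encodes the replacement histone H3.3, rose from 448 ± 33.4 CPM in PBS to 803 ± 16.7 with P-Mn@mHSA (edgeR adjusted p 2.38e-10) and 748 ± 11.8 with P-Mn/TI@mHSA (1.82e-09). H1f0, the replacement linker histone, fell from 381 ± 8.61 CPM to 224 ± 6.36 (edgeR adjusted p 3.34e-10) and 259 ± 3.26 (3.76e-08). H2ax, which is phosphorylated at DNA breaks, rose 1.37-fold (edgeR adjusted p 7.70e-06) and 1.72-fold (3.31e-09), and H2aj fell 1.60-fold (edgeR adjusted p 3.63e-06) and 1.32-fold (0.000975). Between the particles H2ax was 1.25-fold higher with the inhibitor (edgeR adjusted p 0.00682). Their close relatives did not pass the threshold: H3f3a, the other H3.3 gene, stood at 263 ± 14.4, 254 ± 27.7 and 242 ± 18.01 CPM, and the linker histone gene H1f10 at 1.48 ± 0.329, 1.04 ± 0.364 and 1.95 ± 0.108 CPM in PBS, P-Mn@mHSA and P-Mn/TI@mHSA.

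**Figure D4:**
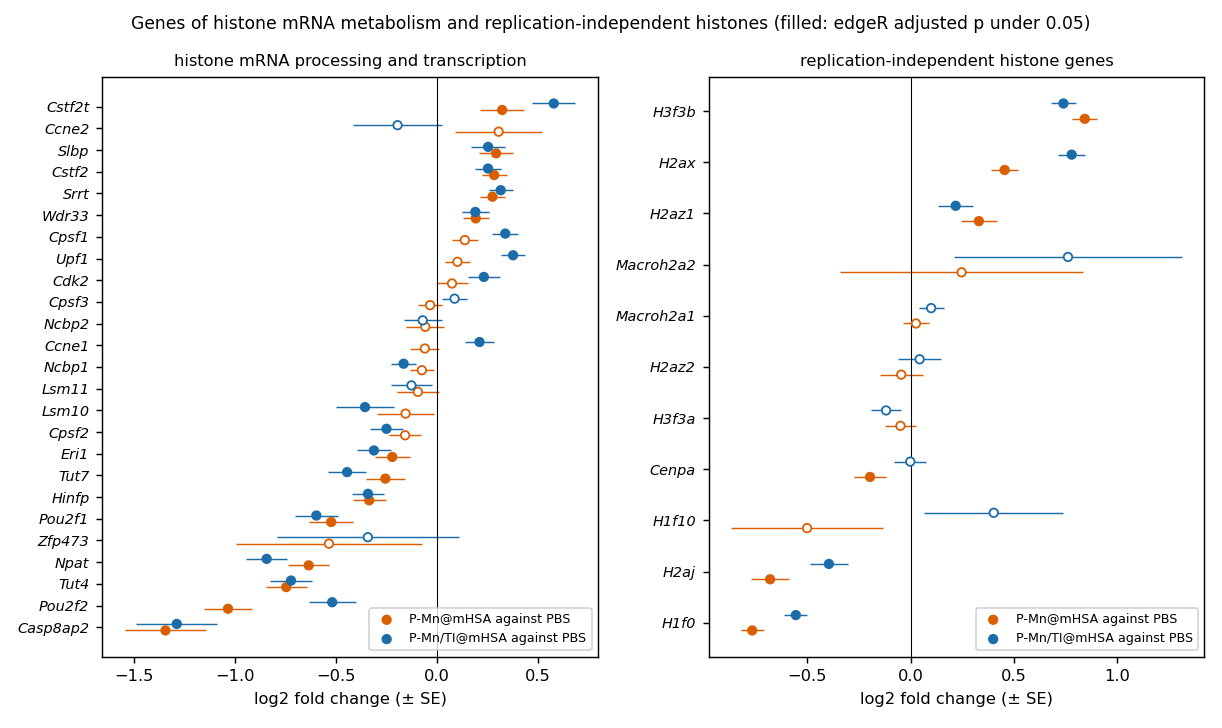
Log2 fold change (± SE) of 25 genes of histone mRNA processing and transcription and of 11 histone genes outside the replication-dependent clusters, for each particle against PBS. Points are filled where the edgeR adjusted p was under 0.05. Casp8ap2, Pou2f2, Tut4 and Npat are lowest with P-Mn@mHSA among the called processing genes, and H3f3b and H1f0 are at opposite ends of the histone genes with P-Mn@mHSA.

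S-phase genes are active in cycling cells together with replication-dependent histones. Of 43 tested, 19 were higher and 5 lower with P-Mn@mHSA, and 26 were higher and 6 lower with P-Mn/TI@mHSA (edgeR), against 24.3% and 24.1%, and 27.1% and 27.3%, of all tested genes. The median log2 fold changes were 0.16 and 0.27, and the list was not tested as a whole. Mcm5 and Mcm7, subunits of the replicative helicase, rose 1.46-fold and 1.37-fold with P-Mn@mHSA (edgeR adjusted p 6.39e-08 and 1.42e-06) and 1.61-fold and 1.52-fold with P-Mn/TI@mHSA (2.17e-09 and 2.25e-08). Lig1, the ligase that joins Okazaki fragments, rose 1.40-fold (edgeR adjusted p 4.18e-07) and 1.61-fold (2.63e-09). Others of the list fell: Rfc1, a subunit of the clamp loader, fell 1.39-fold (edgeR adjusted p 4.63e-05) and 1.502-fold (2.75e-06), and Pola1, the catalytic subunit of DNA polymerase alpha, fell 1.70-fold (edgeR adjusted p 0.00182) and 1.84-fold (0.000428). Rfc1 and Pola1 were named after their values were seen.

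Among 24 histone chaperones and import factors, 9 were higher and 4 lower with P-Mn@mHSA, and 15 were higher and 6 lower with P-Mn/TI@mHSA (edgeR), against 24.3% and 24.1%, and 27.1% and 27.3%, of all tested genes. Daxx and Atrx together deposit H3.3, and they moved in opposite directions. Daxx rose 2.03-fold and 1.81-fold (edgeR adjusted p 3.59e-11 and 7.03e-10), while Atrx fell 3.75-fold and 3.22-fold (edgeR adjusted p 1.09e-09 and 4.69e-09). Mcm2, a helicase subunit that also binds H3 and H4, rose 1.40-fold and 1.62-fold (edgeR adjusted p 3.99e-07 and 2.04e-09). Ubn2, a subunit of the HIRA complex, fell 1.84-fold and 1.69-fold (edgeR adjusted p 6.00e-08 and 3.47e-07).

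Macrophage markers other than Mertk were detected in every library, and Mertk had 2 counts over all of them. The 10 markers summed to 6137 to 6427 CPM in PBS, 4931 to 5227 with P-Mn@mHSA and 5079 to 5467 with P-Mn/TI@mHSA, and 4 of the 9 tested were higher and 5 lower with each particle (edgeR), against 24.3% and 24.1%, and 27.1% and 27.3%, of all tested genes. Lyz2, which encodes lysozyme, fell from 1848 CPM in PBS to 579 and 511 (edgeR adjusted p 3.32e-13 and 6.42e-14), and Adgre1, which encodes F4/80, fell from 104 CPM to 27.0 and 27.9 (edgeR adjusted p 2.48e-13 and 3.06e-13). The 4 higher markers were Csf1r, Cd68, Spi1 and Fcgr1. In PBS, P-Mn@mHSA and P-Mn/TI@mHSA, Csf1r stood at 1645, 2120 and 2407 CPM and Cd68 at 534, 601 and 658. In the same order Spi1 stood at 310, 387 and 401 CPM and Fcgr1 at 143, 238 and 210. Markers of T cells, B cells and epithelium summed to at most 0.335 CPM in any library, those of fibroblasts to at most 1.96, of neutrophils to at most 2.27 and of endothelium to at most 6.79. Col3a1, Col1a2, S100a9 and Ly6g were at 0 in every library.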

How the data were processed

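The table holds a raw read count and an FPKM value per gene and library, per the file headers. The deposited FPKM equalled count divided by gene length and 1 constant per library (0.981 to 1.05 times its total count). Reads were processed with cutadapt 1.9 and FastQC against GRCm38, per the submitters' processing notes; the aligner, the counter and its use of strand were not given in the sources used here. The table's coordinates do not match GENCODE M21, an annotation of GRCm38, so the printed positions come from that annotation and from RefSeq. Chromosomes and the overlaps between genes were taken from the table's own coordinates and strands.

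Counts were filtered with filterByExpr (minimum count 10), which kept 12454 genes, scaled by TMM and fitted in 1 quasi-likelihood model of 9 libraries with edgeR 4.0.16 in R 4.3.3. Tests were two-sided, for 3 comparisons, with Benjamini-Hochberg adjustment over all genes tested and a threshold of 0.05. The fit was tested on simulated data. CPM values are TMM-scaled, family sums carry no test, and a count of 3 was taken as the floor. Named genes are every called histone gene, the most abundant member of each family per length, and H3c3. From each other list, up to 3 genes of lowest p are named. Slbp was added for its role, and the 4 higher macrophage markers for balance, after their values were seen. The members and lists were chosen with earlier results of these data known. Alternatives were other scalings and filters, DESeq2 1.42.0, limma 3.58.1 on log2(FPKM + 1) and log2(FPKM + 0.1), a replicate block, and leaving out each library. Sequences were read with Python 3.11.15.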

Additional observations from a re-analysis of the deposited data

How the results depend on the processing

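Calls were recomputed under 17 alternatives. With P-Mn@mHSA, 8 of 11 called histone genes (H1f2, H2bc4, H2bc21, H3c3, H3c6, H3c10, H4c4 and H4c9) kept their call in all of them. With P-Mn/TI@mHSA this held for 4 of 8 (H1f2, H3c3, H3c6 and H4c4), and H2bc21 lost its call only with limma on log2(FPKM + 0.1), at an adjusted p of 0.0597 in a range from 4.71e-05. No called value changed sign. With P-Mn@mHSA, omitting a single library ended the call of H1f3 (any PBS library, P-Mn@mHSA replicates 1 and 3, P-Mn/TI@mHSA replicate 3), of H3c11 (PBS and P-Mn@mHSA replicates 1 and 2) and of H4c18 (every library but PBS replicate 1). For P-Mn/TI@mHSA it ended that of H1f3 (P-Mn/TI@mHSA replicate 2), H3c10 (any PBS library, P-Mn/TI@mHSA replicates 1 and 2) and H3c11 (every library but PBS replicate 3). Leaving out 1 library at a time gave 9 to 11 calls with P-Mn@mHSA, 5 to 8 with P-Mn/TI@mHSA and 0 between the particles. The filter was rerun each time, so these counts can include histone genes outside the 15 and do not track the same genes. With the replicate number as a block, 9, 7 and 0 genes were called. The numbers do not pair the libraries: deviations of same-numbered libraries correlated at -0.0661 to 0.0611, and 2 of 9 libraries correlated best with their own number.

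Values without a call were less stable, and 12 of 26 changed sign somewhere. Without 1 library, the log2 fold change with P-Mn@mHSA ran from -0.25 to 0.24 for H1f4 and from -1.72 to 0.67 for H1f5. For P-Mn/TI@mHSA it ran from -0.31 to 0.17 for H1f4, from -0.0233 to 1.16 for H1f5 and from -0.21 to 0.65 for H2bc6. Between the particles it ran from -0.10 to 0.70 for H2bc21, from -0.34 to 0.15 for H1f4, from -0.77 to 0.10 for H2bc6 and from -0.56 to 0.0207 for H3c10. It also ran there from -0.67 to 0.17 for H3c8, from -0.24 to 0.13 for H4c18, from -1.43 to 0.60 for H1f3 and from -0.0487 to 0.16 for Malat1. For H3c8 it was 0.0714 with limma on log2(FPKM + 0.1).

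Family sums depend on the genes summed. The versions without a leading gene and over the genes under the filter were added after seeing the data. Without H1f2 the log2 ratio of the H1 sum was -0.34 with P-Mn@mHSA, -0.30 with P-Mn/TI@mHSA and 0.0391 between the particles, and that of all genes 0.39, 0.21 and -0.18. Without H2bc21 the H2B sum gave 0.00723 and 0.00256. Without H3c3 the H3 sum gave 1.25 with P-Mn@mHSA, and without H4c9 the H4 sum gave 1.64 and 1.17. Over genes under the filter the ratios with P-Mn@mHSA were 1.02 for H1, 0.83 for H2B, 0.59 for H3 and 1.001 for all. With P-Mn/TI@mHSA they were 1.29 for H1, 0.48 for H2B, 0.52 for H3 and 0.67 for all. Between the particles they were -0.35 for H2B and -0.33 for all. Over genes that passed it, P-Mn@mHSA gave -1.04 for H2B, 1.897 for H3 and -0.44 for all, and P-Mn/TI@mHSA 1.54 for H3 and -0.37 for all. As FPKM, H2B gave 0.0546 and -0.0869, and all genes 0.27 and 0.14. The low counts per gene limit what single-gene tests can show here.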
